A study of Mus musculus with 4 samples.

Results

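The proteasome subunit genes are the rows of the deposited count table whose symbol is Psm, a letter from a to g and a number, and they came to 48 of 24015 genes. The table holds RNA sequencing of micro-dissected cerebella from adult C57BL/6N mice at 140 to 150 days of age. Mice heterozygous for an Arid1b knockout (HT) were set against wild type littermates (WT), and each genotype was represented by 2 libraries, 1 from a male and 1 from a female. The protein made from Arid1b belongs to the BAF complex, which moves nucleosomes, and the series asked how losing 1 copy changes gene expression. No agent was given, and the labels name no Cre driver or transgene. The labels do not say which part of Arid1b was deleted, and no animal is identified by them. The p-values therefore reflect how much these 4 libraries vary, which may be partly technical.

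The proteasome is the large protease that degrades proteins tagged with ubiquitin. Its core particle is a barrel of stacked rings, with alpha subunits (Psma genes) forming the gates at both ends and beta subunits (Psmb genes) in the middle, some of which carry the cutting sites. The regulatory particle caps the barrel, with ATPase subunits (Psmc genes) that unfold a substrate and non-ATPase subunits (Psmd genes) that bind and remove ubiquitin. Other activators (Psme genes) can cap the barrel instead, Psmf1 encodes the binding protein PI31, and Psmg genes encode chaperones that help to build the core. Immune signals, above all interferon gamma, induce Psmb8, Psmb9 and Psmb10, whose products replace the catalytic subunits Psmb5, Psmb6 and Psmb7 to form the immunoproteasome. Neurons rely on the proteasome for protein turnover at synapses.

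Total counts lay between 15950899 and 20616219 per library. A gene with no count could have a level of up to 0.146 to 0.188 CPM (counts-per-million, relative to the library total). That floor is 3 counts and covers counting error only. Arid1b stood at 52.9 and 55.8 CPM in the HT male and female, against 69.9 and 71.0 CPM in the WT male and female, and was not called (log2 fold change -0.37 ± 0.11 SE, edgeR adjusted p = 0.243). The labelled tissue was checked with 15 granule cell and 14 Purkinje cell markers, of which 0 were at 0. Granule cell markers summed to 5161 and 5696 CPM in HT libraries and to 6523 and 7595 CPM in WT libraries. Purkinje cell markers summed to 6080 and 5638 CPM in HT libraries and to 6683 and 7749 CPM in WT libraries.

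Proteasome genes as a group took a slightly larger part of the RNA in both heterozygotes. All 48 genes together took 0.487% of counts in the HT male and 0.459% in the HT female, against 0.427% in the WT male and 0.442% in the WT female. The genotypes did not overlap in this sum. With 2 libraries per genotype the smallest p of an exact two-sided permutation test is 0.333, so the sum was not tested. In bulk tissue, a change in the cells that make up a sample and a change in RNA per cell cannot be told apart.

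Enough counts for a test were found in 46 of the 48 genes. Of these, 43 had a positive log2 fold change (HT over WT) and 3 a negative one, where 51.1% of all 15117 tested genes were positive. Their median log2 fold change was 0.13, with an interquartile range of 0.07 to 0.18, against a median of 0.0063 over all tested genes. In 30 of the 46 genes both HT libraries had more CPM than both WT libraries, as did 22.1% of tested genes. In 1 gene, Psme4, both HT libraries had less, as did 22.6% of tested genes. No gene of the group passed the threshold singly. Past an adjusted p of 0.05, edgeR's quasi-likelihood test called 0 of the 46 and 0.0198% of all tested genes. DESeq2 called 0 of the 46 and 0.218% of tested genes, and limma-voom 0 of the 46 and 0.0198%. At an unadjusted p under 0.05 there were 3, namely Psmc1 and Psme1 on the higher side (background 5.22%) and Psme4 on the lower side (background 6.46%). That count, against 11.7% of all tested genes in either direction, was below the background share.

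**Figure D1:**
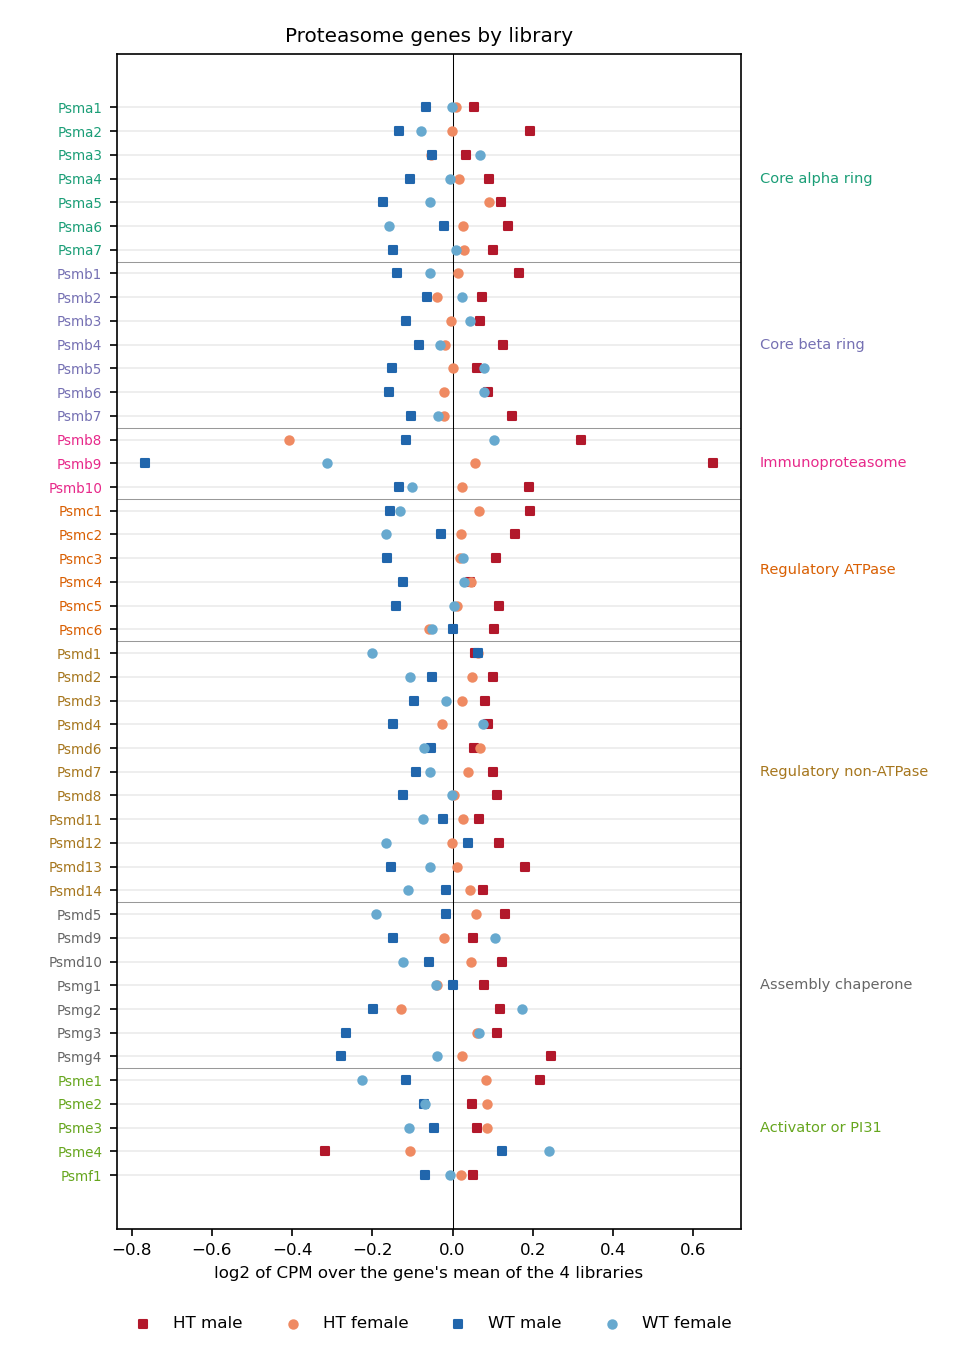
Level of each of the 46 tested proteasome genes in each library, as log2 of CPM over the gene's mean of the 4 libraries (x axis), with genes grouped by role (y axis); squares are males, circles females, red and orange HT, dark and light blue WT. The HT male is rightmost in 36 genes and the WT male leftmost in 29, and Psme4 has both HT libraries on the left.

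The spread of these genes over the 4 libraries was small. The coefficient of variation of their CPM had a median of 7.51% and ran from 3.40% to 42.1%, against a median of 11.1% over all tested genes. Among genes between 52.6 and 140 CPM, the median was 5.85% for 22 proteasome genes and 7.73% for all 3134 tested genes.

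Levels between genes were compared as transcripts-per-million (TPM), with counts divided by the length of the longest annotated protein-coding transcript. Constitutive core particle genes had mean levels of 66.9 to 508 TPM, with a median of 237 TPM over 14 genes. The 17 subunits of the regulatory particle overlapped that range, at 50.5 to 652 TPM with a median of 192 TPM. Assembly chaperones were lower, at 31.3 to 47.9 TPM over 7 genes. Psmc5, an ATPase subunit, had the highest level of the proteasome genes. It stood at 694 and 658 TPM in the HT male and female, against 611 and 644 TPM in the WT male and female. Psmb9 had the lowest level of the tested proteasome genes. It stood at 4.42 and 2.996 TPM in the HT male and female, against 1.75 and 2.27 TPM in the WT male and female. Psmc5 and Psmb9 kept these places when counts were divided by coding length instead. Places in between did not all hold: Psma2 was the 29th by transcript length and the 6th by coding length.

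**Figure D2:**
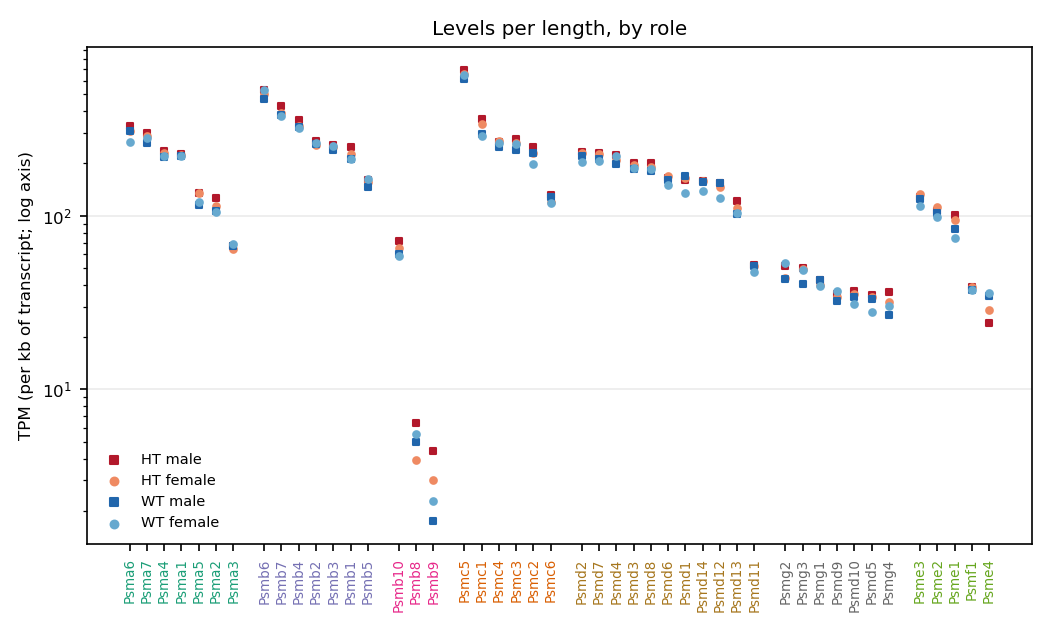
Level per transcript length (TPM, log axis) of each tested proteasome gene in each of the 4 libraries, sorted within its role. Constitutive core and regulatory particle genes overlap in range, assembly chaperones lie lower at 31.3 to 47.9 TPM, and Psmb8 and Psmb9 lie lowest.

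In the alpha ring, 6 of 7 tested genes were higher in HT, at a median of 0.14 on the log2 scale, with 0 calls. The median was 0.063 without the WT male. Psma5 stood at 63.5 and 62.2 CPM in the HT male and female, against 51.8 and 56.2 CPM in the WT male and female, a log2 fold change of 0.22 ± 0.12 (SE, edgeR adjusted p = 0.501). Psma2 stood at 140 and 123 CPM in the HT male and female, against 112 and 116 CPM in the WT male and female (0.20 ± 0.11 SE, adjusted p = 0.506 in edgeR). Both genes had their 2 HT libraries above their 2 WT libraries. Psma2 was at 0.11 without the HT male and at 0.31 after removal of the trend with length and GC content described further on. Psma6 was at 0.17, Psma7 at 0.14, Psma4 at 0.11 and Psma1 at 0.07, each with both HT libraries above both WT libraries. Psma3 was the exception in the ring, at -0.016 ± 0.11 (SE). Psma8, an alpha subunit known from the testis, was too low to test, with 8 and 10 counts in the HT male and female, against 6 and 3 counts in the WT male and female.

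The structural beta subunits Psmb1 to Psmb4 were all slightly higher in HT, from 0.04 (Psmb2) to 0.19 (Psmb1) on the log2 scale, with a median of 0.09. Psmb4 was at 0.11 and Psmb3 at 0.07. The median was 0.036 without the HT male, 0.043 without the WT male, 0.14 without the WT female and 0.026 after removal of the trend with length and GC content. Between the males the median was 0.20 and between the females -0.01. Of the constitutive catalytic subunits, Psmb5 carries the chymotrypsin-like site. It stood at 54.7 and 52.4 CPM in the HT male and female, against 47.2 and 55.3 CPM in the WT male and female (0.07 ± 0.13 SE). Psmb6, with the caspase-like site, stood at 161 and 149 CPM in the HT male and female, against 135 and 160 CPM in the WT male and female (0.08 ± 0.11 SE). In both genes the WT male was lowest and the genotypes overlapped. Psmb7, with the trypsin-like site, stood at 188 and 167 CPM in the HT male and female, against 158 and 166 CPM in the WT male and female (0.14 ± 0.11 SE), so that its groups did not overlap. Psmb7 was at 0.051 without the HT male, at 0.21 without the HT female and at 0.083 after removal of the trend with length and GC content. The median of the 3 catalytic genes, 0.08, was -0.04 without the WT male, 0.18 without the WT female, 0.033 without the HT male and 0.11 without the HT female. It was 0.0089 after removal of the trend with length and GC content.

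The immunoproteasome subunits had lower levels than their constitutive partners and, as a ratio of highest to lowest, spanned a wider range. Psmb10 had a mean of 63.5 TPM, Psmb8 of 5.20 TPM and Psmb9 of 2.86 TPM, against 393, 156 and 508 TPM for Psmb7, Psmb5 and Psmb6, the subunits they replace. Psmb10 stood at 35.4 and 31.5 CPM in the HT male and female, against 28.3 and 28.9 CPM in the WT male and female, a log2 fold change of 0.23 ± 0.14 (SE, edgeR adjusted p = 0.569). It was 0.14 without the HT male. Psmb9 had 46 and 24 counts (2.27 and 1.505 CPM) in the HT male and female, against 14 and 24 counts (0.851 and 1.16 CPM) in the WT male and female. The genotypes of Psmb9 did not overlap in CPM, and its log2 fold change was 0.88 ± 0.46 (SE, edgeR adjusted p = 0.496). Its exons overlap those of Tap1, on the opposite strand, in the annotation. It was 0.57 without the HT male and 1.16 without the WT female. Psmb8 had 80 and 38 counts (3.94 and 2.38 CPM) in the HT male and female, against 48 and 70 counts (2.92 and 3.40 CPM) in the WT male and female, and the genotypes overlapped (-0.023 ± 0.34 SE). Psmb11, the beta subunit of the thymus, had 1 and 0 counts in the HT male and female, against 2 and 0 counts in the WT male and female.

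The share of each catalytic pair's counts that came from the inducible member was then taken per library, with exact 95% Clopper-Pearson intervals that cover counting error only. Psmb10 made up 15.8% (14.8 to 16.9%) of the Psmb10 and Psmb7 counts in the HT male and 15.9% (14.6 to 17.2%) in the HT female. In WT it made up 15.2% (13.9 to 16.5%) in the male and 14.9% (13.8 to 16.01%) in the female. Psmb8 made up 6.73% and 4.35% of its pair with Psmb5 in the HT male and female, against 5.82% and 5.78% in the WT male and female. Psmb9 made up 1.39% and 0.999% of its pair with Psmb6 in the HT male and female, against 0.624% and 0.724% in the WT male and female. Intervals of HT and WT overlapped in the Psmb10 and Psmb8 pairs. In the Psmb9 pair the HT male (1.02 to 1.85%) overlapped narrowly with both the WT male (0.342 to 1.05%) and the WT female (0.464 to 1.08%). Per transcript length, the inducible subunits made up 6.83% and 6.40% of all catalytic subunit levels in the HT male and female, against 6.27% and 5.82% in the WT male and female. Cells of the immune system express these genes, and the summed level of 19 microglia markers was 299 and 214 CPM in the HT male and female, against 219 and 237 CPM in the WT male and female. The HT male was highest in the microglia sum and in Psmb8, Psmb9 and Psmb10, as it was in 36 of the 46 tested proteasome genes. The part of microglia in these values was not tested.

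**Figure D3:**
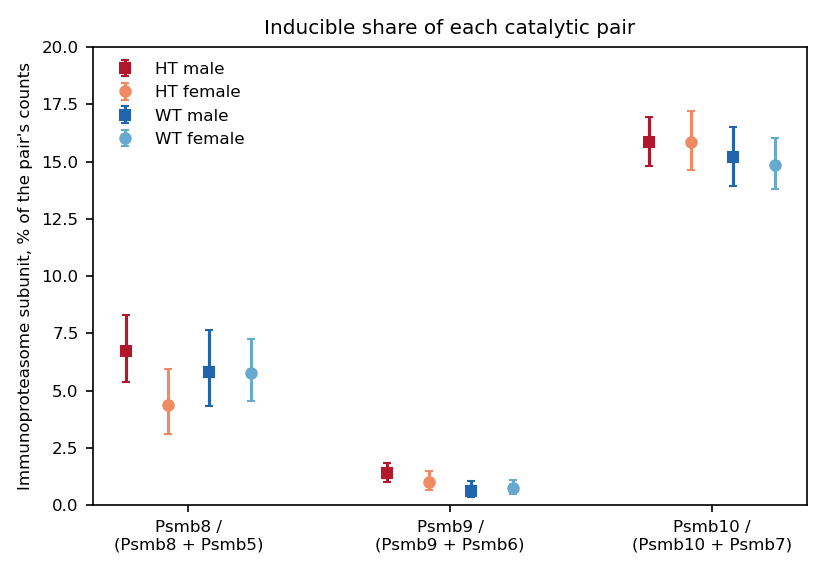
Percent of each catalytic pair's counts that came from the immunoproteasome member (y axis) in each of the 4 libraries, for the Psmb8 and Psmb5, Psmb9 and Psmb6, and Psmb10 and Psmb7 pairs; bars are exact 95% intervals of counting error. Psmb10 lies between 14.9% and 15.9% in all libraries, and Psmb9 between 0.624% and 1.39%.

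All 6 ATPase genes of the regulatory particle were higher in HT, and the log2 fold changes ran from 0.05 (Psmc6) to 0.27 (Psmc1), with 0.13 as the median. The median was 0.070 without the WT male. Psmc1, which had the smallest p among the genes on the higher side, stood at 217 and 198 CPM in the HT male and female, against 170 and 173 CPM in the WT male and female. The groups did not overlap, and the log2 fold change was 0.27 ± 0.10 (SE), or a 1.21-fold level (edgeR adjusted p = 0.342). Over the alternatives it ran from 0.21 to 0.33, and it was 0.26 without the WT male and 0.29 without the WT female. Psmc2 had 0.19 ± 0.10 (SE) and was about as much higher in males (0.19) as in females (0.19). Without the WT male it was at 0.26, and it was at 0.12 without the HT male and at 0.12 without the WT female. Psmc5, at 346 and 322 CPM in the HT male and female, against 290 and 321 CPM in the WT male and female, had 0.13 ± 0.11 (SE). Its HT female and WT female were nearly equal, and it was at 0.061 without the WT male, 0.20 without the WT female, 0.079 without the HT male and 0.075 after removal of the trend with length and GC content. Psmc3 was at 0.13 and Psmc4 at 0.09. Psmc6 was at 0.22 after removal of that trend and at -0.029 without the HT male.

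All 11 non-ATPase genes were higher in HT as well, within a narrow range of 0.07 to 0.20 on the log2 scale and with a median of 0.12. Psmd13 had the largest value, 0.20 ± 0.11 (SE), and was at 0.12 without the HT male. Psmd7 was at 0.15, Psmd6, Psmd8 and Psmd12 at 0.12, Psmd3 at 0.11 and Psmd11 at 0.10. Psmd4, a ubiquitin receptor, had 0.07 ± 0.11 (SE), and Psmd14, the deubiquitinase of the lid, had 0.13 ± 0.10 (SE). Psmd2, a large scaffold subunit, stood at 263 and 254 CPM in the HT male and female, against 237 and 228 CPM in the WT male and female (0.16 ± 0.10 SE). Its log2 ratio was alike in males (0.15) and females (0.16). Psmd1, its partner scaffold, stood at 190 and 190 CPM in the HT male and female, against 191 and 159 CPM in the WT male and female, so that the WT female alone was low. Its log2 fold change of 0.13 ± 0.11 (SE) was 0.26 without the WT male and -0.0059 without the WT female.

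The genes of the chaperones that build the regulatory particle, Psmd5, Psmd9 and Psmd10, were higher in HT, with a median log2 fold change of 0.18. Psmd5 had 0.20 ± 0.12 (SE), Psmd10, also known as gankyrin, 0.18 ± 0.16 (SE) and Psmd9 0.04 ± 0.14 (SE). Chaperones of the core particle had a median of 0.11 over 4 genes, which was 0.044 without the WT male, 0.28 without the WT female, 0.068 without the HT male and 0.048 after removal of the trend with length and GC content. Psmg4 stood at 0.29 ± 0.25 (SE), Psmg3 at 0.19 ± 0.18 (SE), Psmg1 at 0.04 ± 0.17 (SE) and Psmg2 at 0.01 ± 0.17 (SE). These 4 genes had 88 to 540 counts per library.

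The activators held the genes with the smallest p on the lower side and the next smallest on the higher side. Psme1 and Psme2 encode the alpha and beta subunits of PA28, an interferon-inducible cap. Psme1 stood at 42.5 and 38.7 CPM in the HT male and female, against 33.7 and 31.3 CPM in the WT male and female. The groups did not overlap, and the log2 fold change was 0.32 ± 0.13 (SE), or a 1.25-fold level (edgeR adjusted p = 0.372). It was 0.33 between the males and 0.31 between the females. Over the alternatives it ran from 0.26 to 0.38, and it was highest without the WT male. The exons of Psme1 overlap those of Emc9, on the opposite strand. Psme2 stood at 38.9 and 40.0 CPM in the HT male and female, against 35.9 and 35.9 CPM in the WT male and female (0.14 ± 0.13 SE). Psme2b, which resembles Psme2 and could share reads with it, had 1 to 5 counts per library. Psme3, the nuclear PA28 gamma, had 0.15 ± 0.10 (SE).

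Psme4, which encodes the nuclear activator PA200, went the other way. It stood at 59.6 and 69.0 CPM in the HT male and female, against 80.9 and 87.7 CPM in the WT male and female. Both HT libraries were below both WT libraries, and the log2 fold change was -0.39 ± 0.11 (SE), or a 0.762-fold level (edgeR adjusted p = 0.207). The ratio was -0.44 between the males and -0.34 between the females. Over the alternatives it ran from -0.51 to -0.29. It was -0.45 without the WT male, -0.33 without the WT female, -0.29 without the HT male and -0.51 without the HT female. Of the fits to all 4 libraries, only edgeR with no low-count filter called the gene (adjusted p = 0.0324). In that fit 2.92% of all genes were called. Psmf1, the gene of PI31, was at 0.08 ± 0.12 (SE).

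Sequences upstream of the genes with the smallest p are shown because their fold changes had opposite signs. They are RefSeq promoters of build GRCm38.p6, from 250 bases before to 50 bases after the annotated start, and capitals mark letters of the motifs described next.
Psmc1 promoter, chr12:100109952-100110251, plus strand: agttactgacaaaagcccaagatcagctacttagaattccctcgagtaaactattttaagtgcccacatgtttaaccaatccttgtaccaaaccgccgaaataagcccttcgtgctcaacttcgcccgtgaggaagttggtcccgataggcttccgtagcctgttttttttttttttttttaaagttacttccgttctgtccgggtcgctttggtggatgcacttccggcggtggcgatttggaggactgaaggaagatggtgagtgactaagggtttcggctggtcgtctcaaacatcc
Psme1 promoter, chr14:55578244-55578543, plus strand: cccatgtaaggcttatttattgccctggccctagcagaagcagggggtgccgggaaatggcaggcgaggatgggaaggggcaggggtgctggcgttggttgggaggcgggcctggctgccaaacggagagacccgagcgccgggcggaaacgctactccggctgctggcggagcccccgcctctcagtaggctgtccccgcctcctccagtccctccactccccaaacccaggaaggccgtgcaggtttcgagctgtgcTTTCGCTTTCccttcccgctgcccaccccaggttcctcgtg
Psme4 promoter, chr11:30771525-30771824, plus strand: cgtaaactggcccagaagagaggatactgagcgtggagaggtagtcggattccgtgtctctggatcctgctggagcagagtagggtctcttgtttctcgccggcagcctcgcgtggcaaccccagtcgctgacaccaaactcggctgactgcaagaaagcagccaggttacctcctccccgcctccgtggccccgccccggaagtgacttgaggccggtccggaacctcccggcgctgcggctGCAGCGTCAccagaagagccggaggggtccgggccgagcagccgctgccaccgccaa

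Promoters were matched for 40 of the 48 genes. They were searched on both strands for TGACNNNGC, the core of the antioxidant response element bound by Nfe2l1 and Nfe2l2, and for GAAANNGAAA, the core of the interferon-stimulated response element. TGACNNNGC occurred in 6 of 40 genes (15%), against 16.8% of 11274 tested genes with a promoter and 13.99% of all 27025 genes in the table of promoters. The matches are shown with up to 10 bases on either side, in the direction of the gene, after the coordinates of the window and the position of the motif's first base from the annotated start, with the motif in capitals (its reverse complement where it lay on the other strand).
Psmb5, chr14:54618024-54618052, minus strand, position -47: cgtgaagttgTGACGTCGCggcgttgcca
Psmb6, chr11:70525338-70525366, plus strand, position -9: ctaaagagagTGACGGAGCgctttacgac
Psmc6, chr14:45329587-45329615, plus strand, position -227: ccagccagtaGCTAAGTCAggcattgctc
Psmd12, chr11:107479278-107479299, plus strand, position -247: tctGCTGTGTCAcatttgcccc
Psmd9, chr5:123228149-123228177, plus strand, position -31: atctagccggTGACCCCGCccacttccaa
Psme4, chr11:30771758-30771786, plus strand, position -7: cgctgcggctGCAGCGTCAccagaagagc
The holders of this motif had log2 fold changes of 0.04 to 0.12, except Psme4. GAAANNGAAA occurred in 5 of 40 genes (12.5%), against 3.43% of tested genes and 3.99% of all genes with a promoter.
Psmb3, chr11:97703261-97703290, plus strand, position -163: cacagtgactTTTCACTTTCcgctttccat
Psmd4, chr3:95042675-95042704, minus strand, position -80: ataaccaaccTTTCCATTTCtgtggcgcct
Psme1, chr14:55578493-55578522, plus strand, position 10: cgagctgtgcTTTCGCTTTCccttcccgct
Psmg4, chr13:34162969-34162998, plus strand, position 16: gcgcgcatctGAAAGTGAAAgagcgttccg
Psmd9 also held this motif. Psme1 (0.32) and Psmg4 (0.29) had log2 fold changes above the median of the proteasome genes, and Psmb3 (0.07), Psmd4 (0.07) and Psmd9 (0.04) below it. A match describes letters in these windows and says nothing of binding.

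The difference between the genotypes was larger between the males than between the females. The median log2 ratio of HT to WT was 0.19 in males and 0.04 in females, with 44 and 33 of the 46 genes above 0, where 50.3% and 49.4% of tested genes were. In 32 genes the ratio was positive in both sexes, as it was in 4398 of 15117 tested genes. The male ratio was larger in 34 genes, and in 47.7% of tested genes. The HT male had the highest CPM in 36 of 46 genes (25.7% of tested genes) and the HT female in 4 (19.1%), against 1 for the WT male (25.4%) and 5 for the WT female (29.7%). The HT male had the lowest in 1 (24.6%) and the HT female in 3 (19.8%), against 29 for the WT male (23.6%) and 13 for the WT female (32%). With 1 library per genotype and sex, the difference between the sexes was not tested. Constitutive core genes had medians of 0.21 in males and 0.02 in females, while regulatory particle subunits had 0.18 in males and 0.10 in females. In females 9 of the 14 core genes and 14 of the 17 regulatory particle genes were above 0, and this difference between the groups was not tested. Sex itself showed no difference past the threshold. Between females and males edgeR called 0 of 46 genes (0.0595% of tested genes), and 0 were at an unadjusted p under 0.05 in edgeR (3.82%), with 21 of 46 above 0 (47.1%) and a median log2 fold change of -0.014. Psmd12, with the smallest p for sex, stood at 106 and 94.1 CPM in HT and WT females, against 114 and 108 CPM in HT and WT males (-0.16 ± 0.10 SE, edgeR adjusted p = 0.994).

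**Figure D4:**
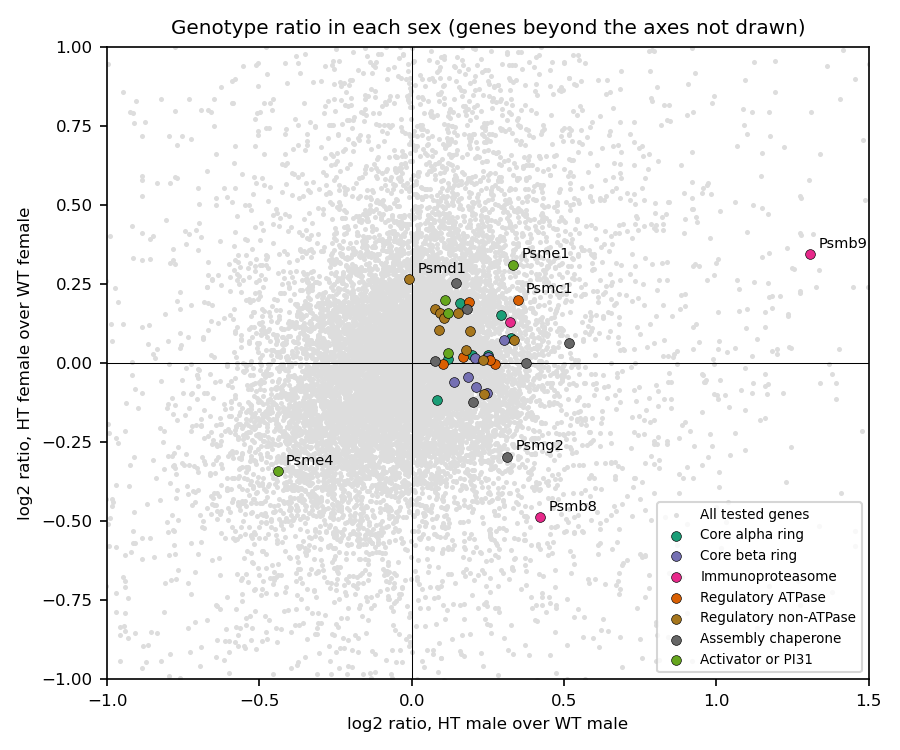
Log2 ratio of HT to WT between the males (x axis) and between the females (y axis) for the 46 proteasome genes (coloured by role) over all tested genes (grey). Most proteasome genes lie right of 0 (median 0.19), closer to 0 on the y axis (median 0.04), and Psme4 lies below 0 on both.

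Transcript length moved with the fold change over all genes. The median log2 fold change was 0.05 for tested transcripts of up to 1000 bases and again 0.05 from 1000 to 1500 bases, and -0.05 above 5000 bases. Proteasome transcripts had a median length of 1490.5 bases, against 3161 bases over all tested genes, and Psme4, at 6491 bases, was the longest of them. Once the dependence on transcript length and on GC content had been removed, 40 of 46 genes were higher and 6 lower, where 46.7% of all tested genes were higher. The median was then 0.09, against -0.02 over all genes. Psmc1 was at 0.23, Psme1 at 0.26 and Psme4 at -0.36 in that fit, and edgeR called 0 proteasome genes and 1.61% of all tested genes at an adjusted p of 0.05.

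**Figure D5:**
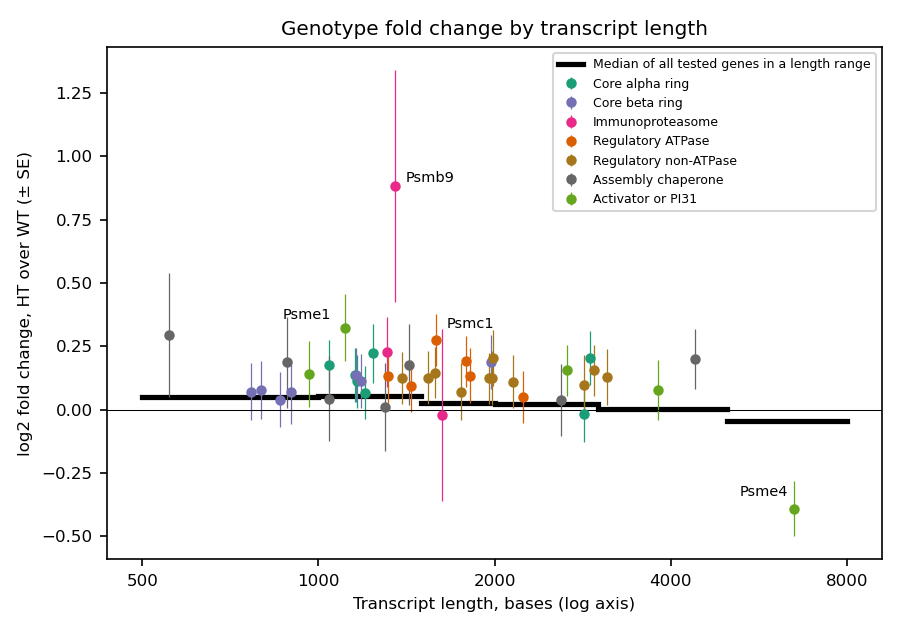
Log2 fold change of HT over WT with its SE (y axis) against transcript length (x axis, log scale) for the 46 proteasome genes, coloured by role, with the median of all tested genes in each length range as black bars. The bars run from 0.05 for short to -0.05 for long transcripts. Most proteasome genes lie above them, and of the few below, Psme4 lies furthest.

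Genes that act with the proteasome were mixed. Of 10 further components and assembly factors, 5 were higher and 5 lower, with a median log2 fold change of 0.00157. Zfand5, which encodes a protein that stimulates the proteasome, stood at -0.26 ± 0.10 (SE), Akirin2, needed for import of proteasomes into the nucleus, at -0.21 ± 0.12 (SE), and the proteasomal deubiquitinase Usp14 at 0.09 ± 0.11 (SE). Of 14 genes that regulate proteasome genes, 9 were higher, with a median of 0.10. Nfe2l1, the transcription factor that raises proteasome gene expression when proteasomes fail, stood at 410 and 394 CPM in the HT male and female, against 371 and 333 CPM in the WT male and female (0.20 ± 0.10 SE, adjusted p = 0.497 in edgeR). Ddi2, the protease that activates the Nfe2l1 protein, had 0.52 ± 0.25 (SE), and Nfya, a subunit of the CCAAT-binding factor NF-Y, -0.31 ± 0.15 (SE). Both HT libraries were above both WT libraries in Nfe2l1 and Ddi2 (22.1% of tested genes) and below them in Nfya (22.6%). These genes were named for the smallest p of their list, which favours such a separation. Of 6 ubiquitin and E1 enzyme genes 5 were higher (median 0.08), among them Ubb at 0.12 ± 0.11 (SE). Between the males the median was 0.20, with 5 of the 6 above 0, and between the females -0.034, with 1 above 0. Ubb was at 0.25 between the males and -0.0037 between the females. Of 7 ubiquitin receptor genes 5 were higher (median 0.08), with Nub1 at 0.19 ± 0.10 (SE).

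Genes of antigen presentation and of the interferon response were mixed. Of 11 genes of antigen presentation on MHC class I 7 were higher, with a median of 0.04, among them the chaperone gene Calr at 0.14 ± 0.10 (SE), while H2-D1, which encodes a class I chain, was at -0.16 ± 0.12 (SE). Of 16 interferon response genes 5 were higher, with a median of -0.04. Ifit2 was at 0.58 ± 0.24 (SE), Stat2 at -0.20 ± 0.10 (SE) and Isg15 at -0.55 ± 0.35 (SE). Ifit2 stood at 12.3 and 11.9 CPM in the HT male and female, against 10.9 and 5.92 CPM in the WT male and female. In that gene the WT female alone was low. Markers of cell types differed as well. Higher in HT were 16 of 19 microglia markers (median 0.18), 11 of 12 choroid plexus markers (median 0.55) and 13 of 14 oligodendrocyte markers (median 0.15). Lower were 15 of 15 granule cell markers (median -0.43), 13 of 14 Purkinje cell markers (median -0.32) and 14 of 14 endothelial markers (median -0.55). The microglia median was 0.47 between the males and -0.11 between the females, with 18 and 7 of the 19 markers above 0. The endothelial median was -0.126 between the males and -0.945 between the females. Summed choroid plexus markers were at 2711 and 1564 CPM in the HT male and female, against 1482 and 1471 CPM in the WT male and female. Summed oligodendrocyte markers were at 15894 and 14951 CPM in the HT male and female, against 13671 and 14389 CPM in the WT male and female. In both sums the HT male was highest, as it was in most proteasome genes, and their part in the proteasome values was not tested. In the 12 lists edgeR called 0 genes at an adjusted p of 0.05, as did limma-voom, while DESeq2 called 5 granule cell markers and 1 endothelial marker, with 0.218% of all tested genes called. At an unadjusted p under 0.05 in edgeR there were 12 granule cell, 11 endothelial, 10 Purkinje cell, 6 choroid plexus, 2 oligodendrocyte and 1 microglia markers, 1 interferon response gene and 1 further proteasome component, Zfand5. At that threshold stood 11.7% of all tested genes, so that the oligodendrocyte, microglia, interferon and proteasome component counts were near or below that share.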

How the data were processed

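Strand-specific poly(A) libraries of 4 cerebella shared 1 sequencing lane, with single-end reads 100 bases long, per the labels' protocols. The deposited values are raw counts per gene symbol made by the authors; the submitters' processing notes list STAR, featureCounts, FastQC and edgeR, with no version, and the build mm9. Strand use in the authors' counting was not given in the sources used here, and 13 of the 48 genes overlap exons of another gene in GENCODE vM21, 11 of them on the opposite strand (Psmb9 with Tap1, for example), so their counts may be shared.

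The genes, roles and lists were chosen with earlier results of these data known. Genes were kept with filterByExpr (15117 of 24015, holding 99.9% of counts) and scaled by TMM. The fit was edgeR's robust quasi-likelihood model (version 4.0.16, with R 4.3.3) on sex plus genotype, leaving 1 residual degree of freedom. Spread pooled over all tested genes added a median of 10.6 prior degrees of freedom. It therefore weighs more in a p-value than the gene's own spread. Two-sided p-values got a Benjamini-Hochberg adjustment across the 15117 genes. The SE of a log2 fold change is its size over the square root of F. CPM use library totals, and ratios within a sex a prior count of 2. Lengths and GC content came from GENCODE vM21. Every gene of the group is named, with values per library for the catalytic subunits, the 6 smallest p for genotype, the 2 for sex and the extreme levels, plus up to 3 genes of smallest p per list; others were added by role after their values were seen. Alternatives were DESeq2 1.42.0, limma-voom 3.58.1, edgeR's likelihood ratio test, other scalings and filters, no sex term, removal of the length and GC trend, and leaving out each library with genotype as the only term.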

Additional observations from a re-analysis of the deposited data

Results flagged for a closer look

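In 8 genes the HT to WT log2 ratio was positive between the males and negative between the females, each beyond 1 counting standard error. At any size, the ratio differed in sign between the sexes in 13 of the 46 genes. It was positive in both sexes in 32 and negative in both in 1, against 4398 and 4437 of all 15117 tested genes. With 1 library per genotype and sex, the difference between the sexes was not tested. The ratios were 0.42 in males and -0.49 in females for Psmb8, and 0.31 and -0.30 for Psmg2, in the same order. Psmb6 had 0.25 in males and -0.094 in females, Psmd4 0.24 and -0.098, and Psmb5 0.21 and -0.074. Psmd9 had 0.20 in males and -0.12 in females, Psmb2 0.14 and -0.059, and Psma3 0.085 and -0.12. All but Psma3 and Psmb8 had the WT male as the lowest library, and in those 2 genes the HT female was lowest.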

How the results depend on the processing

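The median log2 fold change of the group, 0.13, kept its direction in all alternatives and lay between 0.090 and 0.16 with a library left out. The count past an adjusted p of 0.05, which is 0, was 1 (Psme4) with no low-count filter and 0 to 5 with a library left out (5 without the WT male, 2 without the WT female, 0 with the HT male or the HT female left out). The count at an unadjusted p under 0.05, which is 3, was 5 after removal of the length and GC trend, where 16.4% of all tested genes stood at that threshold. It was 0 to 12 with a library left out, namely 0 without the HT male (2.62% of all tested genes), 1 without the HT female (4.92%), 8 without the WT male (28.1%) and 12 without the WT female (17.1%). In these fits the genotype that keeps 2 libraries sets the spread, and 17.5% of all tested genes passed an adjusted p of 0.05 without the WT male, 4.30% without the WT female. The immunoproteasome share of catalytic subunits, not divided by length, was 9.35% and 8.77% in the HT male and female and 8.59% and 8.08% in the WT male and female. Some genes changed sign, and not only those near 0, since Psmd1 (0.13) and H2-D1 (-0.16) did so with a library left out. After removal of the length and GC trend, Psma3 was at 0.060, Psmg1 at -0.023, Psmg2 at -0.029, Psmb2 at -0.027 and Psmd9 at -0.014; Psmb8 was at 0.013 without the sex term and 0.000697 with limma-voom. With a library left out, Psma3 ran from -0.074 to 0.041, Psmb2 from -0.018 to 0.084, Psmb3 from -0.0091 to 0.15, Psmb5 from -0.045 to 0.18, Psmb6 from -0.041 to 0.19, Psmb8 from -0.40 to 0.31, Psmc6 from -0.029 to 0.12, Psmd1 from -0.0059 to 0.26, Psmd4 from -0.041 to 0.18, Psmd9 from -0.088 to 0.16, Psmg1 from -0.016 to 0.089, Psmg2 from -0.17 to 0.20, H2-D1 from -0.36 to 0.047 and Usp14 from -0.14 to 0.33. A log2 fold change moved by over 1.5 times or changed sign in 25 of 46 genes without the HT male, 11 without the HT female, 24 without the WT male, 22 without the WT female and 24 after removal of the length and GC trend. The cause was not tested. Low counts limit Psmb8 and Psmb9, whose SE were 0.34 and 0.46. Beyond sex, the libraries were not paired, because the labels give no replicate numbers. Each sex holds 1 library of each genotype, so the sex term sets HT against WT within a sex; without that term the counts were again 0 and 3.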
